A study of Rattus norvegicus with 7 samples.

Results

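The transcripts described here are those of 4 matrix metalloproteinases (Mmp2, Mmp9, Mmp12 and Mmp14), the related protease Adamts1 and 3 tissue inhibitors of metalloproteinases (Timp1, Timp2 and Timp3). They were chosen by gene symbol. Every probe set of the array whose only symbol was one of these 8 was taken, which gave 15 of 31042 non-control probe sets, for 8 of 14217 genes with a symbol. All values are deposited log2 expression values, so a difference of 1 is a doubling. The 7 arrays measured total RNA of right lungs, perfused with saline, from Dahl salt-sensitive rats of 250 to 350 g, a strain prone to hypertension on a salty diet. All animals were kept at about 9.5% inspired oxygen and were given SU-5416, an inhibitor of VEGF receptors; the series text places the lung harvest at 3.5 weeks. The HSU group (3 arrays, 1b, 2b and 3b) had hypoxia and SU-5416 only, and the HSU_Sor group (4 arrays, 1 to 4) was in addition given sorafenib, which blocks RAF kinases and several receptor tyrosine kinases. Normoxic rats and rats given only hypoxia, which the series text also names, are not analysed here, so no value below says how hypoxia or SU-5416 changed a gene. Sex and age are not given in the sources used here.

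Matrix metalloproteinases are zinc-dependent enzymes that cut collagens, elastin and other proteins around cells. They are made as inactive precursors, and TIMP proteins block the active enzymes by binding their catalytic site. Mmp14 sits in the cell membrane, and together with Timp2 it activates the precursor of Mmp2, a gelatinase. Mmp9 is the gelatinase stored by neutrophils, Mmp12 is the elastase of macrophages, and Adamts1 is a secreted protease that cuts the proteoglycan versican. In pulmonary hypertension the balance between these enzymes and their inhibitors is studied because vessel walls thicken and lay down matrix.

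The medians of the arrays lay between 3.59 and 3.68, and any pair of arrays had a Pearson r of at least 0.984. The lung label was borne out by Sftpc, a surfactant protein of alveolar cells, which was between 15.39 and 15.54. The arrays HSU 1b and HSU 2b stood apart in heart muscle transcripts, of which 4 of 7 on the array were above the filter, a mean over the arrays of 3.64: the summed level of the 7 was 12.18 and 11.90 on the log2 scale, against 9.45 on HSU 3b and 9.12 to 10.72 in HSU_Sor. Myoglobin (Mb) read 6.88 on HSU 1b, 5.59 on HSU 2b and 2.57 to 2.64 elsewhere. The part of this in the results below was not tested. Leaving both arrays out makes HSU 3b the only HSU array, so that fit has no HSU spread. Differences from that fit are given below for some members, without a p. Titles carry the letter b in all HSU samples and in no HSU_Sor sample, so whatever the letter stands for and the treatment cannot be told apart. Nothing in the labels says outright that each array came from its own rat.

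Upstream sequences are shown for Timp1 and Mmp12 because they were the 2 members whose promoter entry held one of the motifs searched. AP-1, a transcription factor made of FOS and JUN proteins whose activity follows ERK signalling, is known to act on both promoters. Of the 8 genes, 5 had an entry in the RefSeq promoter table of build GRCr8. The 250 bases before the annotated start were searched on both strands for the AP-1 letters TGANTCA and for TGAGTAA, a variant known from Timp1 genes. Capitals mark the match, and each line runs 5′ to 3′ toward the start.
Timp1 (chrX:3771123-3771372, minus strand): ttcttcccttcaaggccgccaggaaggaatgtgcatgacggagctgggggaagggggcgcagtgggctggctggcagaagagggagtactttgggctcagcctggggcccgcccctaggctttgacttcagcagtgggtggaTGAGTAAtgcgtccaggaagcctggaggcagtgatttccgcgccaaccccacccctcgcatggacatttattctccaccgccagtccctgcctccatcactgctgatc
Mmp12 (chr8:12866402-12866651, plus strand): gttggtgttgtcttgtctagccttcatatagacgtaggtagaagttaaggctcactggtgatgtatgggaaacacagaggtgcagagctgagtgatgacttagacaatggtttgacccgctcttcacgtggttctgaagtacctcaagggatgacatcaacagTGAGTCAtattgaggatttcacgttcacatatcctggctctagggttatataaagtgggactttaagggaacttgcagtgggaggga
Timp1 had the lowest unadjusted p of the members, and Mmp12 was below the filter on expression. The Timp1 match TGAGTAA began 108 bases before the start, and 2.38% of 33469 promoters held these letters in the same window. As the variant is known from Timp1 genes, that share does not show how unusual this match is. The Mmp12 match TGAGTCA began 87 bases before the start, and 6.34% of promoters held TGANTCA. Neither motif was found in the same window of Timp2, Timp3 or Adamts1. A match is a description of letters and no evidence of binding here.

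The comparison between the HSU and HSU_Sor arrays asked whether the transcripts of these proteases and inhibitors differed when sorafenib was added. The inhibitor Timp1, the protease Adamts1 and the brighter of 2 Mmp14 probe sets were lower in HSU_Sor lungs at an unadjusted p below 0.05. None of the 8 genes passed after adjustment. The other Mmp14 probe set was at 0.18, with an interval that included 0, and Adamts1 lost that p in most fits with 1 array left out. The intervals of Mmp2, Timp2 and Timp3 included 0, and Mmp9 and Mmp12 were near the floor in both groups. In limma, fitted across the 15521 probe sets with a mean above 3.64, the median over all probe sets, 0 probe sets had a Benjamini-Hochberg adjusted p below 0.05 (0% of all tested), with 931 at an unadjusted p below 0.05 (6% of all tested). Of the 15 member probe sets 11 were above this filter, from 6 genes. Their smallest adjusted p was 0.683. Of the 11, 3 were lower at an unadjusted p below 0.05, where the share among all probe sets tested was 3.67%, and 0 were higher, where it was 2.33%. A difference below 0 was found for 10 of the 11 and for 54% of all tested. By at least 1.4-fold in either direction, 3 of the 11 differed, as did 4.46% of all tested. These 3 were Timp1, Adamts1 at 1.41-fold, and a Timp3 probe set (1368989_at) whose interval included 0, and Mmp14 was not among them. The split of all probe sets at that p was 569 lower and 362 higher, and it became 495 and 478 after quantile normalization and 391 and 360 after median centring of the arrays. These are bulk lung samples, in which fewer cells of a type and less RNA per cell cannot be told apart.

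**Figure D1:**
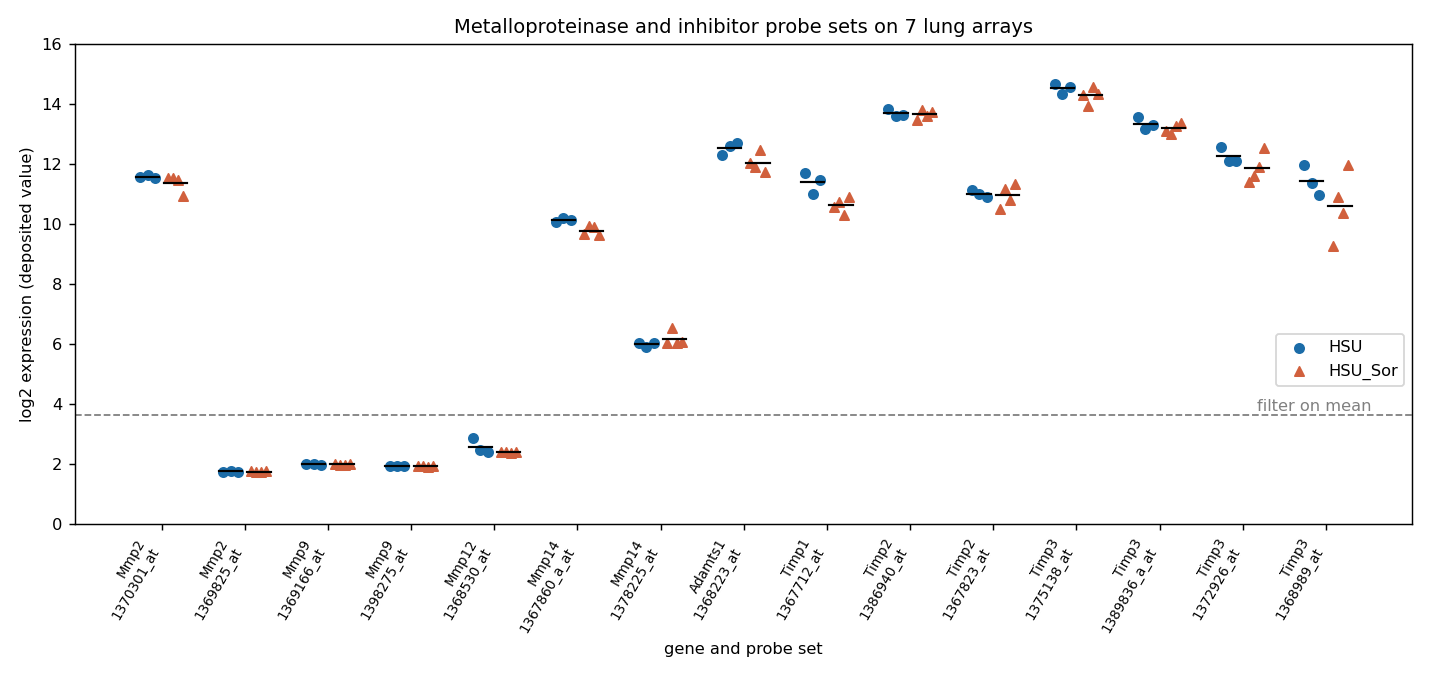
Deposited log2 expression of the 15 member probe sets (x axis) on the 3 HSU arrays (circles) and the 4 HSU_Sor arrays (triangles); the short black lines are group means and the dashed line is the filter on mean expression, 3.64. The probe sets of Mmp9 and Mmp12 and 1 of Mmp2 lie below the filter in both groups, and for Timp1 all 4 triangles lie below all 3 circles.

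Among the inhibitors, Timp1, the inducible member of the family and a blocker of most secreted metalloproteinases, had the largest difference of the 6 genes above the filter, each read from its brightest probe set. Its 1 probe set (1367712_at) read 11.71 on HSU 1b, 10.99 on HSU 2b and 11.48 on HSU 3b, and 10.58, 10.72, 10.30 and 10.90 on HSU_Sor 1 to 4. All 4 HSU_Sor values were below all 3 HSU values, with a gap of less than 0.1 between HSU 2b and HSU_Sor 4. The means were 11.39 ± 0.37 (SD, n = 3) and 10.62 ± 0.26 (SD, n = 4). The difference was -0.77 ± 0.21 (SE) on the log2 scale, with a 95% interval from -1.27 to -0.27, which is a level in HSU_Sor 0.587 times that in HSU (limma, unadjusted p = 0.00896, adjusted p = 0.683). Over the alternatives run the adjusted p from limma was between 0.427 and 0.98. An exact permutation test over the 7 arrays gave a two-sided p of 0.0571, the lowest value possible with groups of this size. The difference was between -0.97 and -0.61 when 1 array was left out, at an unadjusted p of at most 0.0333 in each of these limma fits. It was -0.86 without both HSU 1b and 2b, which leaves HSU 3b as the only HSU array. Timp1 was the only member among the probe sets lower by at least 1.4-fold at an unadjusted p below 0.01, which made up 0.612% of all tested.

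Timp2, the inhibitor that also takes part in Mmp2 activation, had 2 probe sets. The brighter one (1386940_at) was at 13.84, 13.60 and 13.63 in HSU and at 13.47, 13.81, 13.60 and 13.75 in HSU_Sor. The groups overlapped, and the difference was -0.03 ± 0.10 (SE), with a 95% interval from -0.28 to 0.22. The dimmer one (1367823_at) differed by -0.05 ± 0.21 (SE), with an interval from -0.56 to 0.45. These intervals leave room for a change of moderate size in either direction, and the sign of both turned when HSU 1b, HSU_Sor 1 or both HSU 1b and 2b were left out.

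Timp3 is the inhibitor that stays bound to the matrix and also blocks ADAM proteases, and it was measured by 4 probe sets that spread very differently. The brightest (1375138_at) was at 14.65, 14.33 and 14.58 in HSU and at 14.31, 13.94, 14.57 and 14.35 in HSU_Sor, a difference of -0.23 ± 0.16 (SE). The dimmest (1368989_at) was at 11.95, 11.36 and 10.97 in HSU and at 9.25, 10.88, 10.37 and 11.95 in HSU_Sor. On this probe set HSU_Sor 1 was the lowest array and HSU_Sor 4 was as high as HSU 1b, so that the difference of -0.81 ± 0.62 (SE) had an interval from -2.31 to 0.68. The range over the 7 arrays was 0.72 for the brightest, 0.56 for 1389836_a_at, 1.17 for 1372926_at and 2.70 for the dimmest. Their differences were all below 0, and the other two were -0.15 and -0.40. Without HSU_Sor 4 the dimmest differed by -1.26, and without HSU_Sor 1 by -0.36. Without both HSU 1b and 2b it differed by -0.35, 1372926_at by -0.24 and 1389836_a_at by -0.096. No Timp3 probe set had an unadjusted p below 0.05 with all arrays, but without HSU_Sor 4 that of 1368989_at was 0.0444 and that of 1372926_at, at -0.62, was 0.0198.

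**Figure D2:**
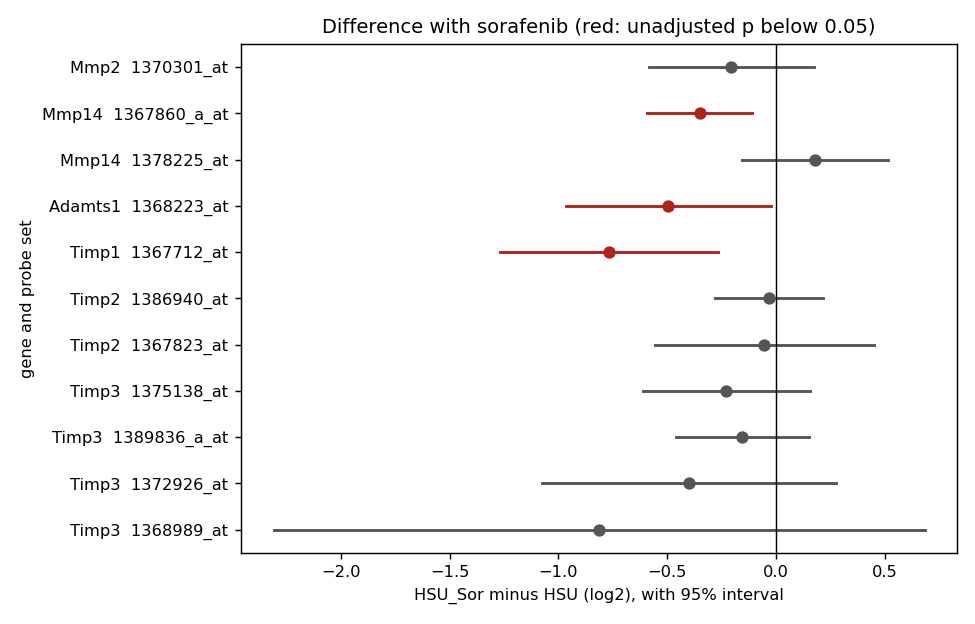
Difference between HSU_Sor and HSU on the log2 scale (x axis) for the 11 member probe sets above the filter, with the 95% interval of the limma fit; red marks an unadjusted p below 0.05. The intervals of Timp1, Adamts1 and the brighter Mmp14 probe set lie below 0, and the widest interval is that of a Timp3 probe set, from -2.31 to 0.68.

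Among the proteases, Mmp14, the membrane-bound activator of Mmp2, had 2 probe sets that disagreed. The brighter (1367860_a_at) was at 10.08, 10.19 and 10.14 in HSU and at 9.65, 9.95, 9.92 and 9.62 in HSU_Sor, and the groups did not overlap. It differed by -0.35 ± 0.10 (SE), with an interval from -0.59 to -0.11 (limma, unadjusted p = 0.0112, adjusted p = 0.683). The dimmer (1378225_at) was at 6.04, 5.88 and 6.04 in HSU and at 6.04, 6.54, 6.04 and 6.06 in HSU_Sor. It gave 0.18 ± 0.14 (SE), and averaging both probe sets brought the Mmp14 difference to -0.09 (unadjusted p = 0.443). On HSU 1b, HSU 3b and HSU_Sor 1 the dimmer probe set carried exactly the same value, as 10.8% of all tested probe sets did on at least 3 arrays. Without both HSU 1b and 2b the brighter probe set differed by -0.36, with HSU 3b as the only HSU array.

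Adamts1 (1368223_at) was at 12.29, 12.61 and 12.70 in HSU and at 12.05, 11.90, 12.48 and 11.72 in HSU_Sor. HSU_Sor 3 lay within the HSU range, and the other 3 HSU_Sor arrays lay below it. The difference was -0.50 ± 0.20 (SE), with an interval from -0.97 to -0.02 (limma, unadjusted p = 0.042, adjusted p = 0.812). The unadjusted p was 0.111 without HSU 2b, 0.13 without HSU 3b, 0.0757 without HSU_Sor 1, 0.0937 without HSU_Sor 2, 0.0889 without HSU_Sor 4 and 0.0572 with median centring. It was 0.00514 without HSU_Sor 3. Without both HSU 1b and 2b, with HSU 3b as the only HSU array, the difference was -0.66.

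Mmp2 was read from its bright probe set (1370301_at), at 11.55, 11.62 and 11.54 in HSU and at 11.54, 11.53, 11.47 and 10.93 in HSU_Sor. The HSU values lay above all HSU_Sor values, but the lowest HSU array (3b) and the highest HSU_Sor array (1) both round to 11.54. A single array, HSU_Sor 4, carried most of the difference of -0.20 ± 0.16 (SE), with an interval from -0.59 to 0.18. Without it the difference was -0.06. The groups failed to overlap for 3 of the 11 member probe sets (Timp1, Mmp2 and the brighter one of Mmp14), all lower, where this was so for 3.25% of all tested; 2.01% of all tested were higher without overlap. Per gene this was 3 of 6 members, against 3.74% lower and 2.3% higher of all genes tested.

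The remaining 4 member probe sets were below the filter. Mmp9 had 2, of which 1369166_at was between 1.96 and 2.02 and 1398275_at between 1.91 and 1.95 on all 7 arrays. The dim Mmp2 probe set (1369825_at) was between 1.73 and 1.77, although the other Mmp2 probe set was above 10.9 on every array, so a value near the floor does not show by itself that a transcript is missing. Mmp12 (1368530_at) was at 2.86 on HSU 1b and between 2.35 and 2.46 on the other 6 arrays. In a fit over all probe sets the differences of these 4 lay between -0.18 and -0.01, and none reached an unadjusted p of 0.05. Cells known to make these enzymes were measured beside them. Of 7 neutrophil markers on the array, 4 were below the filter (Mmp8, Camp, Csf3r and Cxcr2), while S100a8 was between 9.80 and 12.43, highest on HSU_Sor 3. The summed neutrophil level was 13.61 to 14.63 in HSU and 13.84 to 14.56 in HSU_Sor, but the 3 markers above the filter did not move alike. Lcn2, which epithelium also makes, was at 14.46 on HSU 1b, where the sum was 14.63, and it differed by -0.61 ± 0.37 (SE), whereas S100a8 differed by 1.02 ± 0.58 (SE) and S100a9 by 0.85 ± 0.59 (SE), all 3 with overlapping groups. Of 10 macrophage markers, 8 were above the filter, with a summed level of 13.62 to 14.40 in HSU and 13.45 to 13.80 in HSU_Sor, and 4 of the 8 were lower at an unadjusted p below 0.05, where the share over all genes was 4.18%. These 4 were C1qa, C1qb and C1qc, the chains of the complement protein C1q, and Fabp4. Of the others above the filter, Cd68 differed by 0.39, Csf1r by 0.17, Mrc1 by 0.01 and Adgre1 by -0.20, all with overlapping groups.

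Timp1 and Mmp14 are made by fibroblasts among other cells, and fibroblast markers were lower in the same arrays. Of 8 such markers 7 were above the filter, only Fap was below it, and their summed level was 15.73 to 15.88 in HSU and 15.38 to 15.50 in HSU_Sor. Of the 7, 5 were lower at an unadjusted p below 0.05 and 0 higher, where the shares over all genes were 4.18% and 2.69%. Those 5 were Col1a1, Col1a2, Lum, Dpt and Mfap5, of which Col1a1 and Col1a2 are also counted among the substrates below. Pdgfra, at -0.15 ± 0.17 (SE), and Dcn, at -0.10 ± 0.20 (SE), did not reach that p, and their groups overlapped. Smooth muscle markers had a summed level of 15.57 to 15.74 in HSU and 14.65 to 15.23 in HSU_Sor. Of the 6, 4 were lower with groups apart, as were 3.74% of all genes: Tagln, Cnn1, Des and Actg2, at -0.72 to -1.45. Acta2, at -0.04, and Myh11, at -0.27, overlapped. Endothelial markers summed to 15.33 to 15.52 in HSU and 15.20 to 15.60 in HSU_Sor. Among them Vwf was higher with groups apart, at 0.41 ± 0.08 (SE), and the others overlapped. Mesothelial markers summed to 10.00 to 10.89 in HSU and 10.04 to 11.22 in HSU_Sor. Of 6 mast cell markers on the array 3 were above the filter, and their summed level, over all 6, was 7.57 to 8.96 in HSU and 6.69 to 7.35 in HSU_Sor. The groups were apart for Mcpt10, at -2.42 ± 0.54 (SE), and Cpa3, at -0.74 ± 0.22 (SE), and overlapped for Kit, at -0.16, while Tpsab1, Ms4a2 and Fcer1a were below the filter. The part of these cell types in the differences of Timp1, Mmp14 and Adamts1 was not tested.

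**Figure D3:**
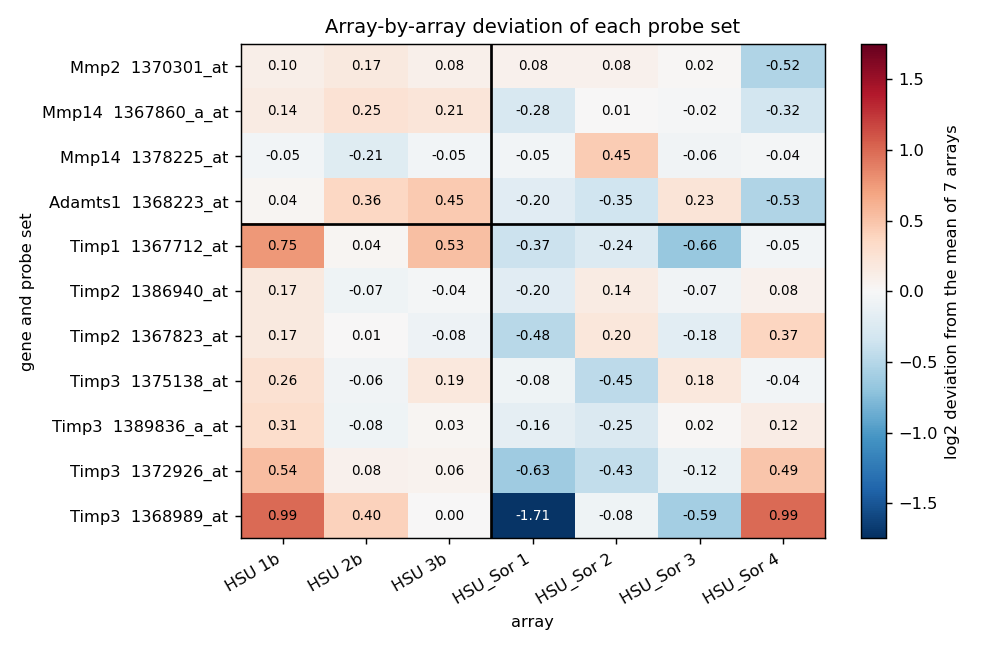
Deviation of each of the 11 member probe sets above the filter (rows) from its own mean over the 7 arrays (columns), in log2 units, with proteases above the horizontal line and inhibitors below it, and HSU to the left of the vertical line. HSU 1b is the highest HSU array in all 7 inhibitor rows, and HSU_Sor 4 is below the mean in all 4 protease rows and above it in 5 of the 7 inhibitor rows.

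The arrays did not rank alike in proteases and inhibitors. HSU 1b was the highest HSU array in 7 of the 7 inhibitor probe sets, with a mean deviation of 0.46 from the 7-array means, but in 1 of the 4 protease probe sets. HSU_Sor 4 was the lowest HSU_Sor array in 3 of the 4 protease probe sets (Mmp2, the brighter one of Mmp14, and Adamts1) and the highest in 5 of the 7 inhibitor probe sets. Its mean deviation was -0.35 over the proteases and 0.28 over the inhibitors. Of the 7 inhibitor probe sets 4 stand for Timp3 and 2 for Timp2, so these counts repeat the same transcripts. The dimmest Timp3 probe set had the largest inhibitor deviation on HSU 1b and on HSU_Sor 4, 0.99 on each. Timp1 was at -0.05 on HSU_Sor 4. This description of single arrays was made after their values were seen. The brighter Mmp14 probe set and Adamts1 had a Pearson r of 0.80 over the 7 arrays, and the dimmest Timp3 and the dimmer Timp2 probe sets one of 0.90; these are descriptions over points that share the same arrays.

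For each member above the filter, the 3 genes with the most similar course over the 7 arrays were found among 9293 other genes. For Timp1 they were Stom (Pearson r = 0.98), Hdlbp (0.97) and Serpine2 (0.97), an inhibitor of plasminogen activators, and r was at least 0.92 without the 2 arrays farthest from the Timp1 median. For Mmp14 they were Pkia, Arf2 and Dr1, for Timp2 Anxa1, Chmp2a and Cyb5a, for Timp3 Rin3, Plec and Glul, and for Adamts1 Zfand3, Txnip and Tcim, with r between 0.96 and 0.99. For Mmp2 they were Arhgef40, Ppp1r16a and Polr1e, with r of at least 0.99 that dropped to between 0.41 and 0.73 without HSU 2b and HSU_Sor 4. With 7 arrays such values are common: 62 genes had an r above 0.9 with Timp1 and 209 with Mmp2.

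The wider protease system was read from 9 gene lists with 1 probe set per gene, the brightest. Of 107 list genes on the array 74 were above the filter, and 17 of these were lower and 2 higher at an unadjusted p below 0.05; over all 9299 genes tested the shares were 4.18% lower and 2.69% higher. None of the 74 passed after adjustment. The median difference was -0.12 over the 74 list genes and -0.01 over all genes tested. Of the 17 lower genes 10 were substrates and partners of the proteases, many of them matrix genes already known from earlier results on these arrays to be lower, so this count is no independent finding. No count is given without both HSU 1b and 2b, as HSU 3b would be the only HSU array.

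In the lists of further matrix metalloproteinases, ADAMTS proteases, ADAM sheddases and lysosomal or other matrix-degrading proteases, only Mmp23 had an unadjusted p below 0.05. Over all genes tested the shares were 4.18% lower and 2.69% higher. Of 6 further matrix metalloproteinases above the filter, 1 was lower, Mmp23, at -0.43 ± 0.14 (SE), and the membrane-bound Mmp15 was at 0.29 ± 0.13 (SE). Another 7 were below the filter, with values of at most 3.53 on any array: Mmp3, Mmp7, Mmp8, Mmp10, Mmp13, Mmp19 and Mmp28. Of 7 ADAMTS proteases and 6 ADAM sheddases above the filter none had an unadjusted p below 0.05, but some estimates were imprecise. Adamts15 was at -0.51 ± 0.30 (SE), with an interval from -1.22 to 0.21, and Adam8 at -0.33 ± 0.23 (SE). The only ones above 0 were Adamts10, at 0.24 ± 0.17 (SE), and Adam17, at 0.03 ± 0.15 (SE). Adam17 releases tumour necrosis factor from the cell surface. Of 10 lysosomal and other matrix-degrading proteases none did either, with Ctsh, a lysosomal cysteine protease, at -0.15 and Ctsb, another, at -0.04.

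Activators of the wider system differed in both directions. The few genes above the filter in the inhibitor lists all had differences below 0, as had 54% of all probe sets tested. Mcpt1, a mast cell chymase, was lower with groups apart, at -1.16 ± 0.41 (SE; limma, adjusted p = 0.812). Plat, the tissue plasminogen activator made by endothelium, was at 13.77, 13.71 and 13.78 in HSU and between 13.01 and 13.43 in HSU_Sor, a difference of -0.52 ± 0.10 (SE; limma, adjusted p = 0.543). Plau, the urokinase-type activator, was at 8.63, 8.74 and 8.66 in HSU and between 8.94 and 9.46 in HSU_Sor, a difference of 0.48 ± 0.14 (SE; limma, adjusted p = 0.72). The groups of these 2 plasminogen activators were thus fully apart in opposite directions. In the list of plasmin inhibitors, 2 genes were above the filter, both with overlapping groups. Serpine2, which inhibits plasminogen activators, differed by -0.54 ± 0.19 (SE). Serpinf1 differed by -1.37 ± 0.42 (SE), but it encodes PEDF, a member of the serpin family that is not known to inhibit proteases. The plasmin inhibitor Serpinf2 was below the filter. Of the other inhibitors on the array, Timp4 was below the filter and Reck, a membrane-anchored inhibitor, was at -0.08. Pcolce, listed with them because it shares a domain with TIMPs, promotes the trimming of procollagen and is not counted here as an inhibitor. It was at -0.69 ± 0.12 (SE; limma, adjusted p = 0.466).

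**Figure D4:**
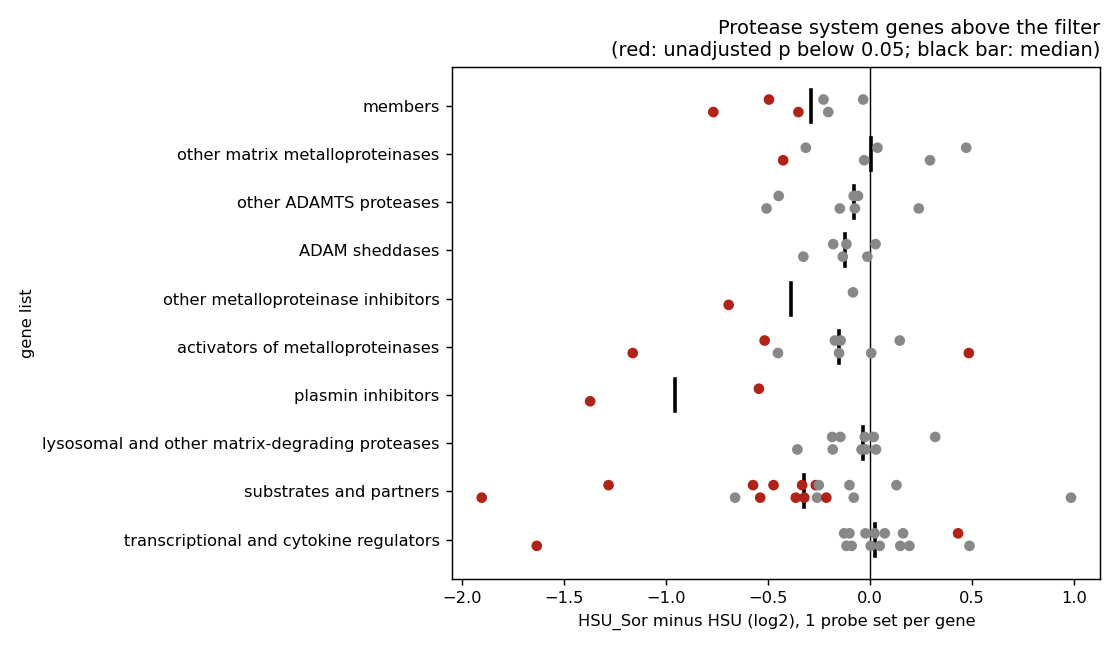
Difference between HSU_Sor and HSU on the log2 scale (x axis) for the members and for each gene of the 9 lists above the filter, 1 probe set per gene; red marks an unadjusted p below 0.05 and black bars are medians. Of the 17 genes in the list of substrates and partners, 10 are red and left of 0.

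Among the substrates, Col1a2, a chain of type I collagen, differed by -0.32 ± 0.05 (SE; limma, adjusted p = 0.232) and the basement membrane laminin chain Lamb1 by -0.57 ± 0.14 (SE; limma, adjusted p = 0.597). Versican (Vcan), the substrate of Adamts1, differed by -1.28 ± 0.37 (SE) with groups apart. It was dim, at 4.38 on HSU 1b and at most 4.16 in HSU_Sor. Elastin (Eln), that of Mmp12, differed by -0.66 ± 0.29 (SE), with overlapping groups and an interval from -1.37 to 0.05. Vcan and Eln were named with their values in view. Among 15 regulators above the filter 1 was lower at an unadjusted p below 0.05, Tgfb3, at -1.63 ± 0.33 (SE). Also, 1 was higher, Tgfb1, at 0.43 ± 0.13 (SE), where the shares over all genes were 4.18% lower and 2.69% higher. The AP-1 component Jun differed by 0.19 ± 0.18 (SE), with overlapping groups, and the AP-1 gene Fosl1 was below the filter.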

How the data were processed

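Expression was measured on 7 Affymetrix rat arrays. The authors deposited normalized log2 values per probe set; RMA and GCRMA are named in the submitters' processing notes, without saying which of them made these values. The 57 control probe sets were left out. Symbols came from the platform annotation. They were checked through gene identifiers against RefSeq (GRCr8), and 0 changed. HSU_Sor was compared with HSU with limma 3.58.1 (lmFit, eBayes; R 4.3.3), two-sided, without covariates, on the 15521 probe sets above the median mean, with Benjamini-Hochberg adjustment at 0.05. Probe sets below the filter were read from a fit over all 31042. SAM, named in the series text, was not run. The fit was tested on simulated data. Members, lists and tests were chosen with earlier results of these data known. Named list genes were, per list, up to 4 with the smallest p and up to 2 with the highest mean. The number of arrays limits the precision. Alternatives were other filters, quantile normalization, median centring, a robust trend, array weights, probe set means, a replicate block and each array left out; the fit without both HSU 1b and 2b was added after seeing the data.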

Additional observations from a re-analysis of the deposited data

Results flagged for a closer look

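In the HSU_Sor group of 4 arrays, the highest or lowest array was tested for its distance from the other 3 in 51 probe sets of members and named list genes; chance alone sets apart about 1 in 20. It stood apart in 6. Mmp2 (1370301_at) was at 10.93 on HSU_Sor 4 against 11.47 to 11.54 on the others. The dimmer Mmp14 probe set (1378225_at) was at 6.54 on HSU_Sor 2 against 6.04 to 6.06. HSU_Sor 4 also stood apart in Serpinf1 (8.48 against 7.399 to 7.496), Dpp4 (10.27 against 10.73 to 10.82) and Nfkb1 (10.68 against 10.84 to 10.85), and HSU_Sor 3 in Ctsk (8.17 against 8.675 to 8.694). Of the 6, 4 were on HSU_Sor 4. Groups of 3, such as HSU, were not tested in this way.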

How the results depend on the processing

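Of the member probe sets, 0 passed after adjustment in any fit, and the signs of the probe sets of Timp1, Timp3, Mmp2, Mmp14 and Adamts1 were the same in each fit run. Timp2 (1386940_at) turned to 0.032 with quantile normalization and 0.026 without both HSU 1b and 2b. Without 1 array it ranged from -0.085 to 0.040. Its dimmer probe set (1367823_at) turned to 0.060 without both HSU 1b and 2b and ranged from -0.19 to 0.10 without 1 array. Over all probe sets, 6 passed with the filter at the 75th percentile and 0 to 6 without 1 array (6 without HSU 3b). With calls made at an unadjusted p under 0.01 and a change of 1.4-fold or more, 131 were called, 1 of them a member probe set. At an unadjusted p below 0.05 the stricter filter left 364 lower and 198 higher, and 356 to 612 were lower without 1 array (356 without HSU 3b). Member probe sets lower at that p were 1 without both HSU 1b and 2b, when list genes were 10. List genes higher at that p were 1 with the stricter filter and 2 to 4 without 1 array (4 without HSU 2b). The replicate numbers share only a number: deviations of same-numbered arrays correlated at -0.06, 0.18 and 0.14. With the replicate block Timp1 differed by -0.86, Mmp14 by -0.30 and Adamts1 by -0.39, and 0 probe sets passed. HSU_Sor 4 has no HSU array of its number, so these differences equal those without HSU_Sor 4 and are no separate check. A larger pseudocount, planned for linear values, did not apply. Dim probe sets are compressed near the floor.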
